A study of Mus musculus with 9 samples.

Results

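The protein components of the mitochondrial ribosome were followed through RNA-Seq of whole mouse retinas. The members are the genes whose names start with Mrpl (large subunit) or Mrps (small subunit) and a number, leaving out names that end in -ps, and they came to 78 of the 25239 gene names listed. Of these, 49 are named Mrpl and 29 Mrps. The retinas were from C57BL/6J mice at P42, and each library held both retinas of 1 mouse. Littermates of 3 genotypes gave 3 libraries each, namely +/+ as the control, Rbpms-CreERT2/+ (Cre/+) and Rbpms-CreERT2/CreERT2 (Cre/Cre). In the knock-in allele, made with CRISPR/Cas9, a P2A-CreERT2 cassette follows the last codon of *Rbpms* in frame, so that Cre is made where the endogenous *Rbpms* gene is active, in retinal ganglion cells. The methods name no tamoxifen for the RNA-Seq retinas. Replicates are separate mice, but the libraries are of bulk tissue in which ganglion cells are a small share of the cells.

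The mitochondrial ribosome translates the few messenger RNAs of the mitochondrial genome, all of which encode subunits of the respiratory chain or the ATP synthase. Its ribosomal RNAs come from the mitochondrial genome, whereas every protein is encoded in the nucleus, made in the cytosol and imported. Some of the proteins have a counterpart in the bacterial ribosome and others were added in the line that led to mitochondria. The retina, with its photoreceptors, is among the tissues that use the most oxygen for their weight, and defects of mitochondrial translation in people can affect the eye. By the known structures, 77 of the 78 members belong to the mitochondrial ribosome, 26 in the small and 51 in the large subunit, and 46 of them have a bacterial homolog while 31 do not. The names mislead for a few of them, since the products of *Mrps18a* and *Mrps30* sit in the large subunit. The product of *Mrps36* has been reassigned to the 2-oxoglutarate dehydrogenase complex and was placed in neither subunit here.

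All 78 genes were on in the retina. None was listed at 0 TPM (a level per length of the gene, scaled to the same total in every library) in any library, each filled 1 row of a table, and all 78 passed the filter of a mean of at least 1 TPM that left 15198 genes to test. Their mean levels over the 9 libraries lay between 12.0 and 132.7 TPM, with a median of 49.5 TPM against 26.5 TPM for all tested genes, and 70 of 78 were above the median tested gene. In the order of all tested genes, the members stood between the 31.4th and the 90.5th percentile. The median level was 53.3 TPM in the large and 40.4 TPM in the small subunit, and 50.5 TPM for proteins with a bacterial homolog and 43.4 TPM for those without one. For scale, the cytosolic ribosomal proteins had a median of 378 TPM (85 genes tested). The nuclear-encoded subunits of the respiratory chain, taken here with those of the ATP synthase, had one of 186 TPM (81 genes tested).

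**Figure D1:**
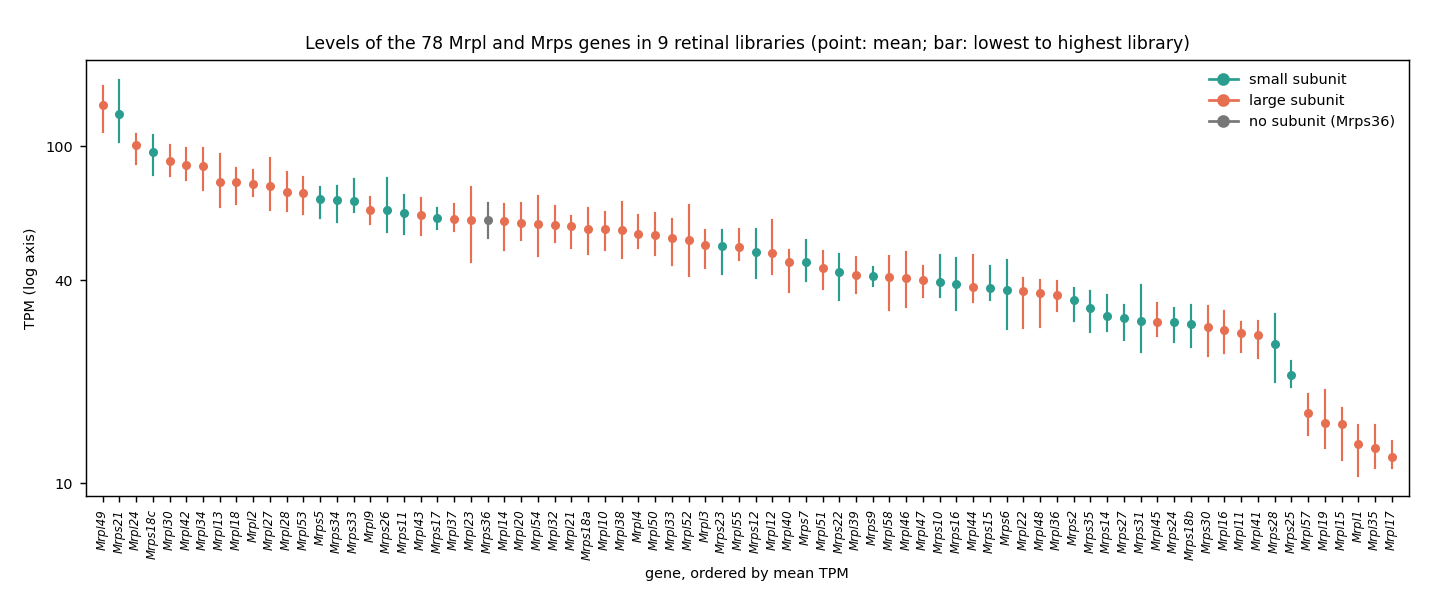
Level of each of the 78 genes, with TPM on a log axis and genes ordered by mean. The point is the mean of 9 libraries and the bar runs from the lowest to the highest library, coloured by subunit, and the means fall from 132.7 TPM for Mrpl49 to 12.0 TPM for Mrpl17.

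The 5 members with the highest levels were *Mrpl49*, *Mrps21*, *Mrpl24*, *Mrps18c* and *Mrpl30*. *Mrpl49*, a large-subunit protein without a bacterial counterpart, had 149, 151 and 141 TPM in +/+, 127, 145 and 125 TPM in Cre/+, and 110, 119 and 126 TPM in Cre/Cre. All 3 Cre/Cre libraries were below the +/+ libraries, and the Cre/+ libraries spanned the gap. *Mrps21*, a small-subunit protein, had 124, 158 and 126 TPM in +/+, 130, 116 and 110 TPM in Cre/+, and 110, 143 and 103 TPM in Cre/Cre, so that the genotypes overlapped and the ranges of these top 2 genes did too. *Mrpl24* followed with a mean of 100.7 TPM, *Mrps18c* with 96.2 TPM and *Mrpl30* with 90.5 TPM. At the other end, *Mrpl17*, *Mrpl35*, *Mrpl1*, *Mrpl15* and *Mrpl19*, all large-subunit proteins with bacterial homologs, had means of 12.0, 12.7, 13.1, 15.0 and 15.1 TPM. *Mrpl17*, the lowest, ranged from 11.1 to 13.4 TPM over the 9 libraries.

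Levels varied little from mouse to mouse. The ratio of the highest to the lowest of the 9 libraries had a median of 1.32 over the members and was under 1.5 in 71 of 78. It was smallest for *Mrps9* at 1.14 and largest for *Mrpl23* at 1.67. Within genotypes, the SD of log2(TPM + 1) had a median of 0.127 over the members and 0.130 over all tested genes, and 43 of 78 members were under the latter value. *Mrpl9*, *Mrpl4* and *Mrpl36* varied least, with SDs of 0.053, 0.053 and 0.055, while *Mrpl52*, *Mrps6* and *Mrps31* varied most, with SDs of 0.26, 0.24 and 0.23. *Mrpl52* had 46.0, 55.3 and 62.0 TPM in +/+, 41.1, 66.9 and 59.5 TPM in Cre/+ and 51.4, 50.5 and 42.1 TPM in Cre/Cre. Its Cre/+ libraries alone thus span the values of the other genotypes. The mean coverage of a member in a library was between 10.1 and 209 reads per base, with a median over members of 54.4, so that even the lowest were read many times over.

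The 3 *Mrps18* paralogs illustrate how related genes can differ in level. Their products take different places, *Mrps18c* and *Mrps18b* in the small subunit and *Mrps18a* in the large one. *Mrps18c* had 108, 95.5 and 100.4 TPM in +/+, 104, 81.9 and 84.4 TPM in Cre/+, and 103, 103 and 85.6 TPM in Cre/Cre. *Mrps18a* had 65.0, 58.2 and 65.4 TPM in +/+, 47.8, 61.2 and 50.3 TPM in Cre/+, and 51.3, 51.4 and 59.2 TPM in Cre/Cre. *Mrps18b* was lowest, with 25.9, 29.8 and 29.3 TPM in +/+, 31.9, 33.3 and 25.4 TPM in Cre/+, and 28.3, 33.9 and 28.7 TPM in Cre/Cre. The order of the 3 was the same in all 9 libraries and their ranges did not overlap. *Mrps30*, another Mrps gene of the large subunit, had a mean of 29.1 TPM.

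The members lie on 17 chromosomes, and many have a close neighbour that starts in the opposite direction. A divergent start, with the neighbour's start within 1000 bases upstream or the starts overlapping by at most 300 bases, was found for 28 of 78 members (35.9%) and for 15.8% of the 15166 tested genes placed on a single chromosome. One such pair joins a protein of each subunit. *Mrps11* (chr7:78783131-78792988, plus strand of mm10) and *Mrpl46* (chr7:78775341-78783089, minus strand) start 42 bases apart, with means of 63.4 and 40.6 TPM. In another pair, *Mrps12* (chr7:28739641-28741821, minus strand), which encodes a protein of the decoding centre, starts 147 bases from *Sars2*, the mitochondrial seryl-tRNA synthetase that charges a tRNA for the same ribosome. *Mrps12* had a mean of 48.7 TPM and *Sars2* one of 23.3 TPM. The start of *Mrpl47* lies 308 bases from that of *Ndufb5*, a subunit of complex I of the respiratory chain. In all, 12 members overlap a listed gene, some of them among the divergent pairs, and 5 do so on the same strand, *Mrpl21*, *Mrpl43*, *Mrpl53*, *Mrps23* and *Mrps6*. Whether the quantification used the strand of the reads is not given in the sources used here, so the levels of these 12 are uncertain.

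Promoter sequences from RefSeq (GRCm38.p6, the assembly of mm10), from 250 bases before to 50 bases after the start of the gene, were matched by symbol for 69 of the 78 members and searched on both strands for 4 motifs. NRF1 and the ETS factor GABP (whose DNA-binding part is *Gabpa*) are known for driving nuclear genes of mitochondria, and YY1 binds near the start of many housekeeping genes. The ETS core CCGGAAG was in 25 of 69 member promoters (36.2%), in 16.9% of the promoters of tested genes and in 9.12% of all promoters. The YY1 core AAGATGGC was in 12 members (17.4%) against 4.31% of tested genes and 2.88% of all. An NRF1 motif, spelled GCGC, any 1 base, TGCGC, was in 13 members (18.8%) against 9.82% and 4.78%, and the TATA box TATAAA was in 4 members (5.80%) against 7.26% and 14.2%. The ETS and YY1 cores can overlap by the letters AAG. The GC content of the windows had a median of 58.3% for members and 60.7% for tested genes. A match is only a match of letters in this window and says nothing about binding.

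**Figure D2:**
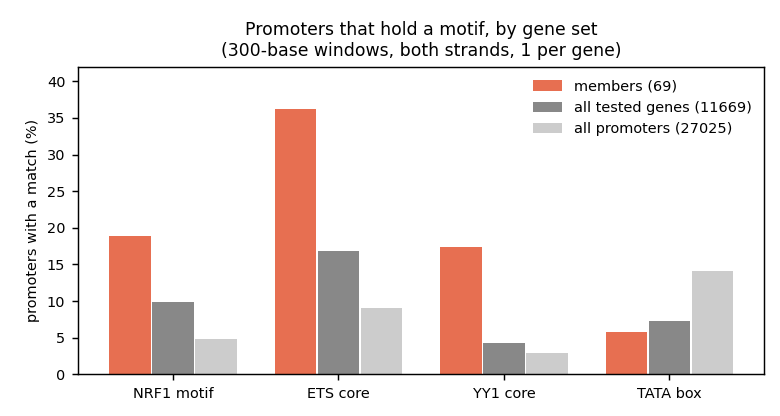
Share of promoters (in percent) that hold each of the 4 motifs on either strand, for the 69 members with a promoter sequence, for tested genes and for all promoters. The ETS core was in 36.2% of members and 16.9% of tested genes, whereas the TATA box was in 5.80% and 7.26%.

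The promoters of 4 members show these features. They were picked for the divergent pairs *Mrps12* with *Sars2* and *Mrps11* with *Mrpl46*, for the highest level (*Mrpl49*) and for the repeated NRF1 motif of *Mrpl45*, whose protein attaches the large subunit to the inner membrane. They lie at chr7:28741772-28742071 (minus strand) for *Mrps12*, chr7:78782881-78783180 (plus) for *Mrps11*, chr19:6057706-6058005 (minus) for *Mrpl49* and chr11:97315466-97315765 (plus) for *Mrpl45*, and the start of the gene is the same base as in the deposited tables in all 4. Each is written 5′ to 3′ on the strand of the member, and capitals mark the motif matches, either as spelled above or as their reverse complement.
Mrps12: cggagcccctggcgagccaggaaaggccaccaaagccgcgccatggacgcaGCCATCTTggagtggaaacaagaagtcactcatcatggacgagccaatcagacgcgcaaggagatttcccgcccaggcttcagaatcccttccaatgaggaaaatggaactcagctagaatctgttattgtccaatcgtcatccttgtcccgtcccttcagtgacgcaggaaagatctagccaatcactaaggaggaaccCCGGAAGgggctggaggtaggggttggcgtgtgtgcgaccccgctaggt
Mrps11: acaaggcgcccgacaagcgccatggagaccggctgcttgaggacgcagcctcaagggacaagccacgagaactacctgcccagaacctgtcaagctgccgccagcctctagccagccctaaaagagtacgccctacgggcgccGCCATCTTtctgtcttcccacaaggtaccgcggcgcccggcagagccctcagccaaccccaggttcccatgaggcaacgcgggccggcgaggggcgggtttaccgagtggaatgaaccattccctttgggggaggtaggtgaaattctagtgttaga
Mrpl49: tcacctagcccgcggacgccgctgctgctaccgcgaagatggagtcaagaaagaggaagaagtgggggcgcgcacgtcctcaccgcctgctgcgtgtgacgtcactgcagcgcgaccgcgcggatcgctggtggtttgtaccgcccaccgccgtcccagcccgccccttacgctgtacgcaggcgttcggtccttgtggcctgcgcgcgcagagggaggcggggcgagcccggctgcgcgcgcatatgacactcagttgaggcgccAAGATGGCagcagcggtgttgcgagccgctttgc
Mrpl45: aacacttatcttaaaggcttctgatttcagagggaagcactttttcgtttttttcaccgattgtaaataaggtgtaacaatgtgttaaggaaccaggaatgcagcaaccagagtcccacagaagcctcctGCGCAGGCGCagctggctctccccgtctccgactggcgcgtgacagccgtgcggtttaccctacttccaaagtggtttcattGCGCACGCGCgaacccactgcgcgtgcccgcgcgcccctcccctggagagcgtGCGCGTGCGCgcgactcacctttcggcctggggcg
*Mrps12* has both the YY1 core, as its reverse complement, and the ETS core, and *Mrps11* has a YY1 core, also reversed. In *Mrpl49* the YY1 core lies past the start of the gene. *Mrpl45* has 3 matches to the NRF1 motif.

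Some measures set libraries apart within a genotype. Depth, taken from the ratio of coverage to FPKM, was between 4.05 and 4.65 aligned gigabases, and *Thy1*, a marker of retinal ganglion cells, was present in all 9 libraries. It had 342, 344 and 344 TPM in +/+, 303, 327 and 317 TPM in Cre/+, and 253, 299 and 281 TPM in Cre/Cre, without overlap between genotypes. *Pou4f1*, another such marker, had 22.4, 23.9 and 22.8 TPM in +/+, 23.6, 24.7 and 22.5 TPM in Cre/+, and 16.8, 20.2 and 21.2 TPM in Cre/Cre. *Slc17a6* had 68.9, 61.2 and 57.2 TPM, 63.5, 62.0 and 66.6 TPM, and 42.9, 59.6 and 61.5 TPM in the same order. For both, Cre/+ overlapped +/+. The part of these markers in the results was not tested. *Rbpms*, the targeted gene, had 43.2, 38.4 and 43.4 TPM in +/+, 31.3, 32.2 and 33.1 TPM in Cre/+, and 19.7, 19.1 and 24.2 TPM in Cre/Cre, so that +/+ was highest and Cre/Cre lowest. The library of Cre/Cre replicate 1 stood apart, with 9.21% of its TPM in Rn45s, the ribosomal RNA precursor, against 0.0827% to 0.336% elsewhere, and the median deviation of all tested genes from their own means was -0.12 on the log2 scale there. Xist, which is high in female tissue, was between 516 and 585 TPM in 6 libraries, all 3 of +/+ among them. It was between 2.08 and 3.16 TPM in Cre/+ replicate 3 and Cre/Cre replicates 1 and 3. The labels give no sex, and the Xist difference is not balanced over the genotypes. Lens genes summed to 902 TPM in Cre/Cre replicate 2 and to at most 201 TPM in the others. The part of these differences in the results was tested only by the alternatives given with them.

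The first question was whether the knock-in altered the supply of mitoribosomal transcripts as a whole. The 78 members summed to 3995, 4171 and 4194 TPM in +/+, 4003, 3882 and 3892 TPM in Cre/+ and 3742, 4106 and 3888 TPM in Cre/Cre. The genotypes overlapped, with the lowest +/+ library under the highest library of either knock-in genotype. Means were 4120 ± 109 TPM in +/+, 3926 ± 67.1 TPM in Cre/+ and 3912 ± 183 TPM in Cre/Cre (SD, n = 3 each). Median-ratio scaling, which sets the typical gene to the same level in each library and so counters the excess of Rn45s, gave 4089 ± 154, 3880 ± 77.5 and 3960 ± 164 TPM. With it, Cre/Cre replicate 1 moved from the lowest of the 9 libraries to above the mean of its genotype. In bulk retina, fewer cells of a type and less RNA per cell cannot be told apart.

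**Figure D3:**
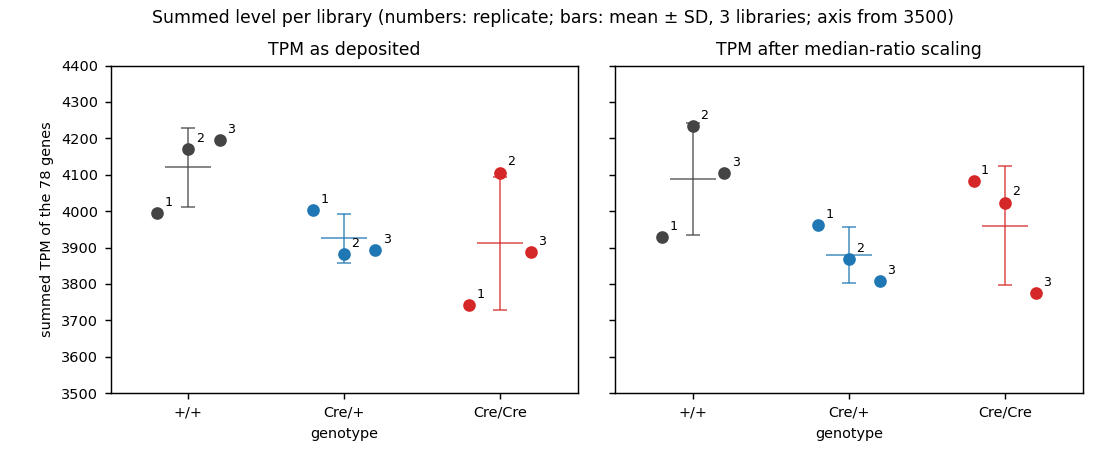
Summed TPM of the 78 genes in each library by genotype, as deposited (left) and after median-ratio scaling (right), with the mean ± SD of 3 libraries and an axis that starts at 3500 TPM. The genotypes overlap in both panels, and Cre/Cre replicate 1 moves from 3742 to 4082 TPM.

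The proportion of the subunits also varied little between libraries. The summed TPM of the large subunit was between 2.04 and 2.17 times that of the small subunit, at 2.11, 2.04 and 2.14 in +/+, 2.07, 2.11 and 2.17 in Cre/+ and 2.06, 2.07 and 2.15 in Cre/Cre. The genotypes overlapped here as well. In Cre/Cre replicate 1, 60 of the 78 members were under their own mean over the 9 libraries and 26 had their lowest value, while the median deviation of the members there was -0.090 and that of all tested genes -0.12.

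No member passed an adjusted p of 0.05 (limma, Benjamini-Hochberg over all 15198 genes) in any of the 3 comparisons. The background was as sparse, since 1 gene (0.00658%) was called in Cre/+ against +/+, 1 gene (0.00658%) in Cre/Cre against +/+, and 2 genes (0.0132%) in Cre/Cre against Cre/+. The smallest adjusted p of a member was 0.319, 0.525 and 0.700 in the same order. With a median standard error of 0.097 on the log2 scale, the 95% intervals of the members were tight. They stayed within 1.5-fold in both directions for 76 of 78 members in Cre/+ against +/+, for 77 in Cre/Cre against +/+ and for 77 in Cre/Cre against Cre/+, whereas 82.6%, 83.6% and 83.1% of all tested genes did so. In the same order it was 97.5%, 97.5% and 96.3% of the respiratory chain genes and 94.1%, 95.3% and 94.1% of the cytosolic ribosomal proteins. The means of all tested genes reached down to 1.00 TPM and those of the members to 12.0 TPM. Among the members, the exceptions were *Mrps28* and *Mrpl23* in the first comparison and *Mrpl52*, the most variable member, in the other 2. By comparison *Rbpms* itself changed by -0.96 (SE 0.098, adjusted p = 0.000581 in limma) in Cre/Cre and by -0.36 (adjusted p = 0.355) in Cre/+.

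**Figure D4:**
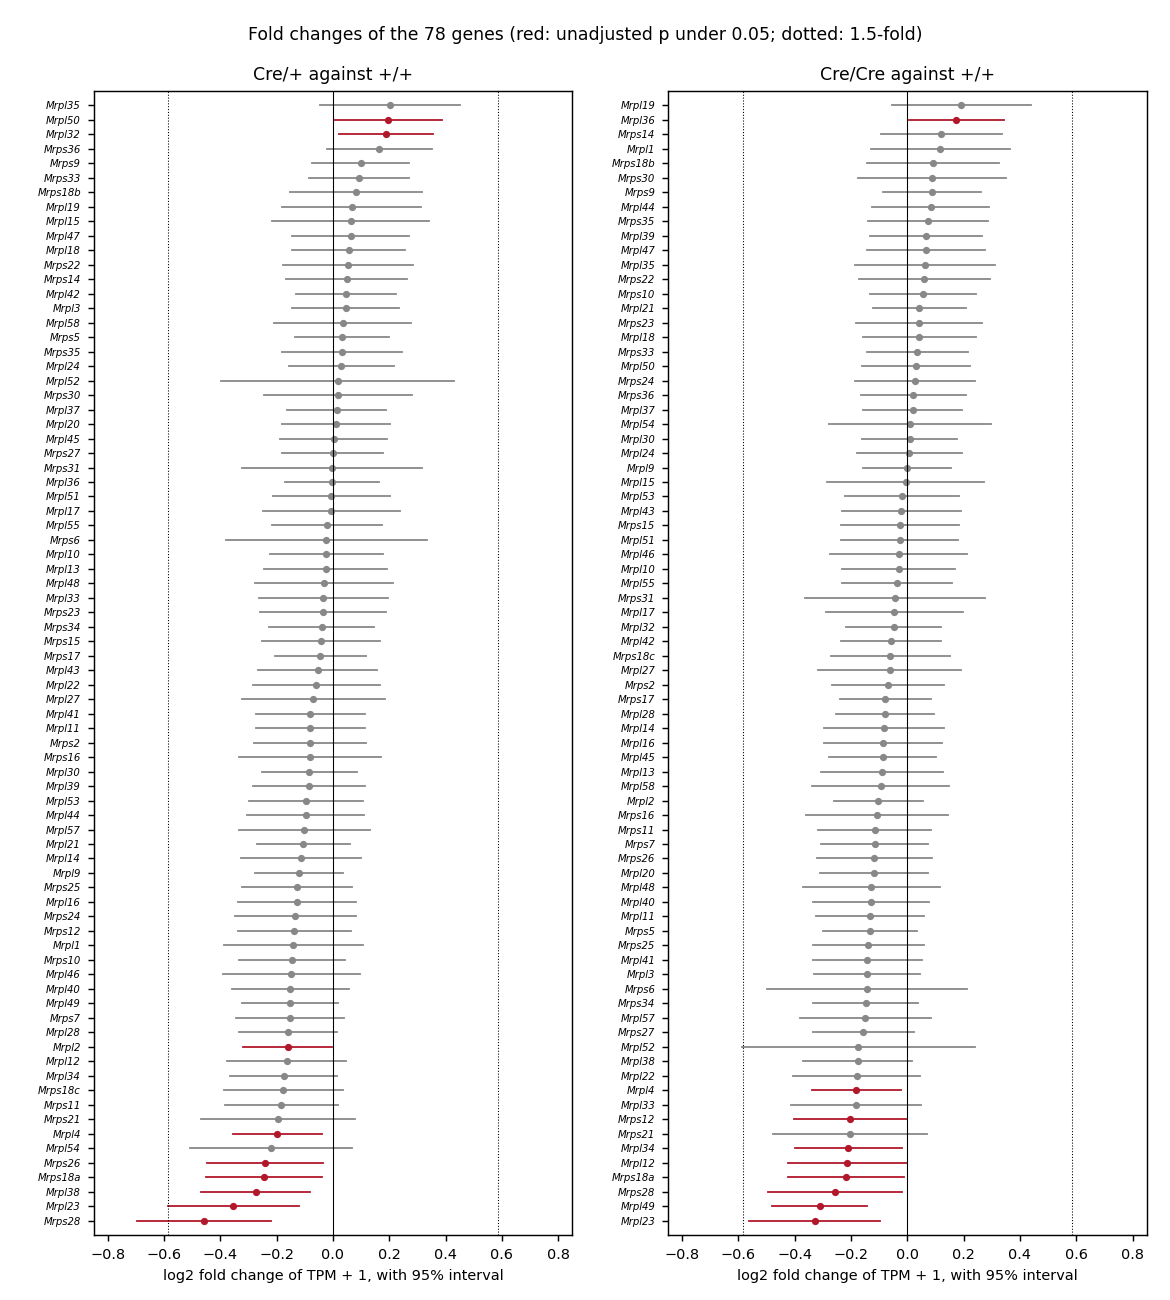
Log2 fold change of TPM + 1 for each of the 78 genes in Cre/+ (left) and Cre/Cre (right) against +/+, ordered by fold change, with 95% intervals. Red marks an unadjusted p under 0.05 and dotted lines mark 1.5-fold, which the intervals of 76 and 77 genes do not reach, and no gene passed an adjusted p of 0.05.

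In Cre/+ against +/+, the members had a median log2 fold change of -0.049, against 0.0014 for all tested genes, and 54 of 78 were below 0 (69.2%, against 49.6% of all genes). At an unadjusted p under 0.05, 2 members (*Mrpl32* and *Mrpl50*) were higher, where 4.9% of all tested genes were, and 7 were lower, where 5.82% were. The 3 libraries of each genotype did not overlap for 1 member with higher values in Cre/+ (*Mrpl35*), beside a background of 11.9%, and for 10 with lower values, beside 10.3%. Of the 7 lower at the unadjusted limit, 5 were in the large and 2 in the small subunit. The median over the small subunit was -0.043 and that over the large one -0.059, both on the log2 scale. With FPKM in place of TPM, 0 members were higher and 6 lower, and of all 13068 genes tested on that scale 298 were higher and 801 lower. The count at the unadjusted limit moved, as did that of all 15198 tested genes, which was 1628 in the model of all libraries. It was 4 members and 783 genes without +/+ replicate 3, 3 members and 1069 genes without Cre/+ replicate 3, and 15 members and 2562 genes with only the genotypes compared in the model.

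The 5 members with the smallest unadjusted p in this comparison were *Mrps28*, *Mrpl23*, *Mrpl38*, *Mrpl4* and *Mrps18a*. *Mrps28* encodes the small-subunit protein related to bacterial S1, and it had 31.7, 28.9 and 30.5 TPM in +/+, 24.4, 21.3 and 20.0 TPM in Cre/+, and 24.5, 29.9 and 22.0 TPM in Cre/Cre. Every Cre/+ library was below every +/+ library, and Cre/Cre overlapped both. Its log2 fold change was -0.46 (SE 0.11, 95% interval -0.70 to -0.22, adjusted p = 0.319 in limma) in Cre/+ and -0.26 (SE 0.11, adjusted p = 0.695) in Cre/Cre. *Mrpl23*, a protein next to the exit of the peptide tunnel, had 67.4, 68.5 and 75.5 TPM in +/+, 55.1, 53.7 and 55.8 TPM in Cre/+, and 66.2, 58.0 and 45.3 TPM in Cre/Cre. Both knock-in genotypes lay under +/+ without overlap, the Cre/+ libraries close together and the Cre/Cre libraries spread out. Its log2 fold change was -0.35 (SE 0.11, adjusted p = 0.377) in Cre/+ and -0.33 (SE 0.11, adjusted p = 0.594) in Cre/Cre.

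*Mrpl38*, a large-subunit protein without a bacterial counterpart, had 57.0, 61.5 and 68.5 TPM in +/+, 46.5, 54.6 and 52.9 TPM in Cre/+, and 51.6, 53.9 and 59.4 TPM in Cre/Cre. The Cre/+ libraries lay below +/+ and Cre/Cre overlapped it. The log2 fold change was -0.27 (SE 0.091, adjusted p = 0.384) in Cre/+ and -0.18 (adjusted p = 0.767) in Cre/Cre. *Mrpl4*, whose product lines the peptide tunnel, had 58.3, 59.1 and 62.6 TPM in +/+, 52.9, 52.2 and 51.4 TPM in Cre/+, and 54.2, 49.8 and 54.5 TPM in Cre/Cre. Neither knock-in genotype overlapped +/+, and the spread within genotypes was among the smallest of all members. Its log2 fold change was -0.20 (SE 0.074, adjusted p = 0.404) in Cre/+ and -0.18 (SE 0.074, adjusted p = 0.662) in Cre/Cre. For *Mrps18a*, with its values given above, the log2 fold changes were -0.25 (SE 0.097, adjusted p = 0.409) and -0.22 (SE 0.097, adjusted p = 0.704), and the libraries overlapped in both comparisons.

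In Cre/Cre against +/+, which shares its control libraries with the comparison above, the median log2 fold change of the members was -0.061, against -0.024 for all tested genes, and 53 of 78 were below 0 (67.9%, against 57.7%). At an unadjusted p under 0.05, 1 member was higher (*Mrpl36*), beside 1.58% of all tested genes, and 8 were lower, beside 5.39%. After median-ratio scaling these counts were 2 and 2, without structural RNA 3 and 1, with Xist as a covariate 2 and 3, with FPKM 0 and 10, and without Cre/Cre replicate 1 they were 1 and 3. Over all tested genes the split of 240 higher and 819 lower turned to 556 and 717 after median-ratio scaling, 868 and 445 without structural RNA, 337 and 452 with Xist as a covariate, 67 and 1038 with FPKM, and 896 and 544 without Cre/Cre replicate 1. Without +/+ replicate 3, the count in both directions was 4 members and 778 genes. The libraries did not overlap for 1 member with higher values (*Mrpl36*), beside 2.7% of all tested genes, and for 7 with lower values, beside 8.05%. Without Cre/Cre replicate 1 the median of the members was -0.023, that of all tested genes 0.024, and 45 of 78 members were below 0.

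The 5 members with the smallest unadjusted p here were *Mrpl49*, *Mrpl23*, *Mrpl4*, *Mrpl34* and *Mrps28*. *Mrpl49*, the member with the highest level, had a mean of 147 ± 4.94 TPM in +/+ and 118 ± 7.69 TPM in Cre/Cre (SD, n = 3 each). Its log2 fold change was -0.31 (SE 0.080, 95% interval -0.48 to -0.14, adjusted p = 0.525 in limma) in Cre/Cre and -0.15 (SE 0.080, adjusted p = 0.492) in Cre/+, and over the alternatives the Cre/Cre value ran from -0.36 to -0.25. *Mrpl49* overlaps *Syvn1*, on the opposite strand, so part of its reads may be uncertain. *Mrpl34*, a small large-subunit protein with a bacterial homolog, had 99.0, 93.6 and 93.9 TPM in +/+, 89.6, 75.9 and 88.5 TPM in Cre/+, and 74.3, 91.5 and 82.3 TPM in Cre/Cre. Both knock-in genotypes lay below +/+ without overlap. The log2 fold change was -0.21 (SE 0.089, adjusted p = 0.679) in Cre/Cre and -0.18 (SE 0.089, adjusted p = 0.483) in Cre/+.

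In Cre/Cre against Cre/+, the median log2 fold change of the members was -0.0017, against -0.030 for all tested genes, and 39 of 78 were below 0 (50%, against 59.2%). These values changed sign or size with other settings. The median of the members was 0.037 and that of all tested genes 0.017 without Cre/Cre replicate 1, where 25 members were below 0, 0.033 and 0.0029 with median-ratio scaling (28 members), and 0.054 and 0.023 without structural RNA (23 members). At an unadjusted p under 0.05, 3 members were higher in Cre/Cre (*Mrpl1*, *Mrpl36* and *Mrps10*), beside 2.38% of all tested genes, and 1 was lower (*Mrpl32*), beside 4.2%. These became 7 and 1 after median-ratio scaling, 9 and 1 without structural RNA, 6 and 1 with Xist as a covariate, and 0 and 1 with FPKM. All tested genes, 362 higher and 638 lower at first, moved as well, to 659 and 625, 872 and 431, 446 and 471, and 167 and 570 in the same order. Without Cre/+ replicate 1 the count in both directions was 8 members and 1037 genes, without Cre/+ replicate 3 it was 2 and 663, without Cre/Cre replicate 1 it was 6 and 755 and without Cre/Cre replicate 3 it was 7 and 1898, against 4 and 1000 with all libraries. The libraries did not overlap for 4 members with higher values (*Mrpl1*, *Mrpl36*, *Mrpl9* and *Mrps10*), beside 4.76%, and for 5 with lower values (*Mrpl13*, *Mrpl32*, *Mrpl42*, *Mrps27* and *Mrps5*), beside 7.23%. *Mrpl50*, *Mrpl13*, *Mrpl42*, *Mrps27* and *Mrps5*, named for these counts, *Mrps9*, named for its range, and *Mrps11*, *Mrpl46*, *Mrpl47* and the 5 members that overlap a gene on their strand, named for their positions, were chosen after their values were seen.

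*Mrpl32*, which is cut by a protease of the inner membrane on its way into the ribosome, had 53.5, 54.4 and 60.7 TPM in +/+, 66.4, 60.1 and 65.9 TPM in Cre/+, and 52.0, 55.0 and 55.8 TPM in Cre/Cre. Cre/+ was the highest genotype, and its libraries lay above those of Cre/Cre but met those of +/+. The log2 fold change of Cre/Cre against Cre/+ was -0.24 (SE 0.079, adjusted p = 0.700 in limma). *Mrps10*, a small-subunit protein with a bacterial homolog, had 39.5, 40.5 and 40.8 TPM in +/+, 35.7, 37.0 and 36.1 TPM in Cre/+, and 41.1, 47.7 and 37.6 TPM in Cre/Cre, and its log2 fold change was 0.20 (SE 0.088, adjusted p = 0.740). Here Cre/+ was the low genotype, without overlap with either of the others. *Mrpl36*, one of the smallest ribosomal proteins, had 34.4, 33.8 and 35.9 TPM in +/+, 36.7, 34.8 and 32.5 TPM in Cre/+, and 39.7, 38.9 and 39.4 TPM in Cre/Cre. The Cre/Cre libraries lay above all others, with a log2 fold change of 0.18 (SE 0.079) against Cre/+ (adjusted p = 0.740) and 0.17 against +/+ (adjusted p = 0.704).

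*Mrpl1*, a protein of the mobile stalk that guides spent tRNAs, is among the 5 lowest members and had 14.0, 13.5 and 11.9 TPM in +/+, 12.9, 12.1 and 10.5 TPM in Cre/+, and 13.4, 14.9 and 14.7 TPM in Cre/Cre. Cre/Cre lay above Cre/+ without overlap and met +/+, with a log2 fold change against Cre/+ of 0.26 (SE 0.12, adjusted p = 0.740). *Mrpl3*, which reaches toward the site of peptide bond formation, had 49.3, 56.4 and 50.0 TPM in +/+, 56.1, 48.4 and 56.3 TPM in Cre/+, and 43.5, 46.9 and 50.2 TPM in Cre/Cre, with a log2 fold change against Cre/+ of -0.19 (SE 0.089, adjusted p = 0.740) and overlapping libraries.

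**Figure D5:**
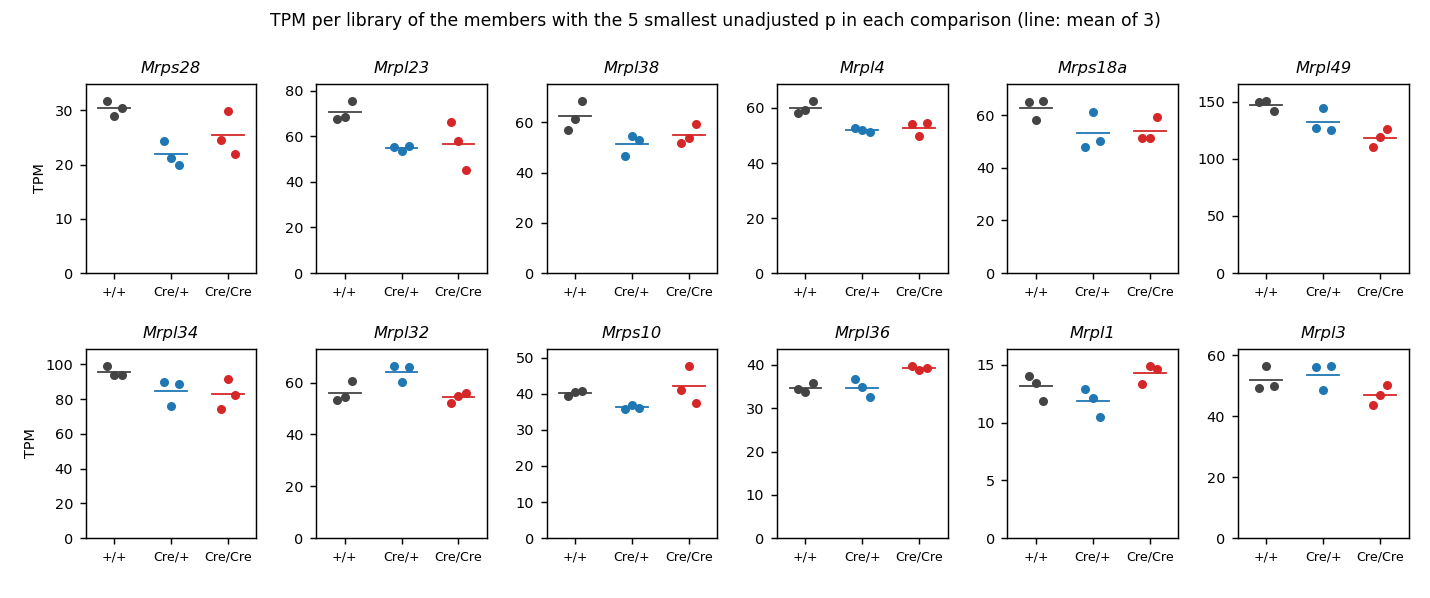
TPM in each library by genotype for the 12 members with the 5 smallest unadjusted p in each comparison, with the mean of 3 libraries as a line and axes from 0. Mrps28 and Mrpl23 are lower in all 3 Cre/+ than in all 3 +/+ libraries, Mrpl49 is lower in all 3 Cre/Cre libraries, and none passed an adjusted p of 0.05.

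Members with well-known places in the ribosome, or known from human disease, did not pass the adjusted p either. *Mrps12*, of the decoding centre, had 46.9, 56.9 and 54.1 TPM in +/+, 48.4, 46.0 and 48.6 TPM in Cre/+, and 40.7, 45.3 and 51.1 TPM in Cre/Cre, and overlapped in all comparisons, with log2 fold changes of -0.14 (SE 0.095) in Cre/+ and -0.20 (SE 0.095, adjusted p = 0.715) in Cre/Cre against +/+. *Mrpl12*, of the stalk that recruits translation factors, had 54.2, 44.4 and 60.3 TPM in +/+, 47.3, 47.7 and 45.4 TPM in Cre/+, and 41.9, 46.6 and 47.4 TPM in Cre/Cre. Its +/+ libraries were spread more widely than those of the other genotypes, and the log2 fold changes were -0.16 (SE 0.10) and -0.21 (SE 0.10, adjusted p = 0.715). *Mrpl45*, whose promoter is printed above, had a mean of 30.7 ± 1.25 TPM in +/+, 30.9 ± 2.98 TPM in Cre/+ and 28.9 ± 1.32 TPM in Cre/Cre (SD, n = 3 each). *Mrps16*, *Mrps22*, *Mrpl3* and *Mrpl44* are genes in which mutations cause combined deficiency of oxidative phosphorylation in people. *Mrps16* had means of 40.9 ± 7.29, 38.2 ± 2.35 and 37.6 ± 3.97 TPM in +/+, Cre/+ and Cre/Cre, *Mrps22* had 41.4 ± 6.19, 42.8 ± 4.58 and 43.0 ± 3.28 TPM, and *Mrpl44* had 38.2 ± 2.11, 35.7 ± 0.964 and 40.8 ± 6.07 TPM. All 3 overlapped between genotypes. Of the 15 members listed for human disease, 1 was higher and 1 lower at an unadjusted p under 0.05 in Cre/+ against +/+. In Cre/Cre against +/+, 0 were higher and 2 lower, and 0 passed the adjusted p in either comparison. Of all tested genes, 4.9% were higher and 5.82% lower at this limit in Cre/+, and 1.58% and 5.39% in Cre/Cre.

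In the lists for the rest of the machinery, 0 genes passed the adjusted p in limma in each of the 3 comparisons. The other 5 mitoribosomal proteins, which carry other names and bring the total to 82, had means between 29.9 and 62.9 TPM. One of them, *Aurkaip1*, a small-subunit protein, had 61.6, 71.1 and 70.5 TPM in +/+, 56.8, 54.5 and 59.4 TPM in Cre/+, and 50.5, 61.9 and 62.7 TPM in Cre/Cre. It was lower in Cre/+ without overlap, with a log2 fold change of -0.25 (SE 0.093, adjusted p = 0.404), and -0.22 (adjusted p = 0.683) in Cre/Cre. Of the 25 assembly factors of the mitochondrial ribosome, 2 were higher and 3 lower at an unadjusted p under 0.05 in Cre/+ against +/+, and 0 and 1 in Cre/Cre against +/+. The 2 higher were *Mterf3* and *Gtpbp10*. *Mterf3* had a log2 fold change of 0.29 (SE 0.090, adjusted p = 0.377 in limma) in Cre/+, without overlap, and 0.084 (adjusted p = 0.918) in Cre/Cre. *Gtpbp10* had 0.30 (SE 0.13, adjusted p = 0.444) and 0.25 (adjusted p = 0.767), with overlapping libraries. Beside this list and those that follow, 4.9% of all tested genes were higher and 5.82% lower in Cre/+ at that limit. In Cre/Cre, 1.58% were higher and 5.39% lower.

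*Mpv17l2*, an inner-membrane protein needed to build the mitochondrial ribosome, had the smallest p of these lists. Its levels were 34.9, 41.9 and 43.8 TPM in +/+, 23.1, 30.0 and 26.9 TPM in Cre/+, and 27.0, 26.8 and 25.6 TPM in Cre/Cre. All 6 knock-in libraries were below all 3 +/+ libraries. The log2 fold change was -0.57 (SE 0.11, adjusted p = 0.130 in limma) in Cre/+ and -0.58 (SE 0.11, adjusted p = 0.126) in Cre/Cre, and 0.0018 lower in Cre/Cre than in Cre/+. With FPKM in place of TPM the adjusted p in Cre/Cre was 0.0231. On that scale 7 of 13068 genes passed in Cre/Cre against +/+, beside 1 of 15198 with TPM. The median log2 fold change of all genes was -0.070 there, with 67 higher and 1038 lower at an unadjusted p under 0.05. Over all alternatives the adjusted p of *Mpv17l2* ran from 0.0231 to 0.604 in Cre/Cre and from 0.0585 to 0.881 in Cre/+.

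Of the 16 mitochondrial translation factors, 1 was higher and 1 lower at the unadjusted limit in Cre/+ against +/+, and 0 and 1 in Cre/Cre. The higher one was *Guf1*, with a log2 fold change of 0.28 (SE 0.098, adjusted p = 0.397 in limma) in Cre/+, without overlap. In Cre/Cre it had 0.12 (adjusted p = 0.888). *Tufm*, the elongation factor that brings tRNAs to the ribosome, had a log2 fold change of -0.24 (SE 0.076, adjusted p = 0.377) in Cre/+ and -0.14 (adjusted p = 0.780) in Cre/Cre, and *Tsfm*, which recharges it, -0.17 (adjusted p = 0.492) and -0.24 (SE 0.090, adjusted p = 0.655). The 20 genes listed as mitochondrial tRNA synthetases include subunits of an amidotransferase. They also include *Lars2*, which had 12510 TPM in Cre/Cre replicate 1, the library high in Rn45s, and 152 to 777 TPM in the other libraries. Its log2 fold change in Cre/Cre was 1.82 (SE 1.56, adjusted p = 0.891 in limma). Of these 20, 0 were higher and 2 lower in Cre/+, and 0 in either direction in Cre/Cre. *Sars2*, the divergent neighbour of *Mrps12*, had 24.0, 23.2 and 27.0 TPM in +/+, 19.2, 20.7 and 19.1 TPM in Cre/+, and 25.4, 28.5 and 22.9 TPM in Cre/Cre. Its Cre/+ libraries lay below both other genotypes, with log2 fold changes of -0.31 (SE 0.10, adjusted p = 0.377) against +/+ and 0.36 (SE 0.10, adjusted p = 0.559) for Cre/Cre against Cre/+. *Mrps12*, on the other side of the shared start region, had 48.4, 46.0 and 48.6 TPM in the same Cre/+ libraries and overlapped both.

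Among 18 genes that express and keep the mitochondrial genome, 1 was higher and 2 lower in Cre/+ and 0 in Cre/Cre at the unadjusted limit. *Pnpt1*, which degrades mitochondrial RNA, had a log2 fold change of 0.32 (SE 0.093, adjusted p = 0.357) in Cre/+ and *Polrmt*, the mitochondrial RNA polymerase, one of -0.27 (SE 0.092, adjusted p = 0.390). Of 9 regulators of mitochondrial biogenesis, 8 were tested, with 1 higher and 2 lower in Cre/+ and 0 in Cre/Cre. The 2 lower were *Pprc1* and *Esrra*, and the higher was *Gabpa*. *Pprc1* had a log2 fold change of -0.29 (SE 0.12, adjusted p = 0.417 in limma) in Cre/+ and -0.24 (adjusted p = 0.743) in Cre/Cre. *Esrra* had -0.19 (SE 0.086, adjusted p = 0.452) in Cre/+, without overlap, and -0.090 (adjusted p = 0.899) in Cre/Cre. *Gabpa*, the ETS factor whose core motif was counted above, had 38.7, 36.5 and 37.3 TPM in +/+, 41.1, 42.1 and 45.9 TPM in Cre/+, and 38.8, 40.1 and 42.7 TPM in Cre/Cre. Its log2 fold change was 0.19 (SE 0.080, adjusted p = 0.422) in Cre/+ and 0.11 (SE 0.080, adjusted p = 0.858) in Cre/Cre, without overlap with +/+ in either. *Nrf1* had -0.068 (adjusted p = 0.833) and -0.17 (adjusted p = 0.818), and *Yy1* 0.12 (adjusted p = 0.589) and 0.0013 (adjusted p = 0.997).

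Values for larger families of related function stand beside these. The cytosolic ribosomal proteins had a median log2 fold change of -0.084 in Cre/+ and -0.080 in Cre/Cre against +/+. The nuclear-encoded subunits of the respiratory chain, again with those of the ATP synthase, had -0.058 and -0.095. Beside these stood -0.049 and -0.061 for the members and 0.0014 and -0.024 for all tested genes. At an unadjusted p under 0.05, 1 cytosolic ribosomal protein was higher and 10 lower in Cre/+ and 0 and 1 in Cre/Cre, and for the respiratory chain 1 and 13 in Cre/+ and 0 and 11 in Cre/Cre. The shares of all tested genes that were lower at this limit were 5.82% in Cre/+ and 5.39% in Cre/Cre, against 10 and 1 of 85 cytosolic ribosomal proteins and 13 and 11 of 81 respiratory chain genes. These comparisons share the +/+ libraries, and none of the genes in either family passed the adjusted p. The counts of the 2 families were not repeated under the alternatives. Over all tested genes in Cre/Cre against +/+, 240 higher and 819 lower turned to 896 and 544 without Cre/Cre replicate 1.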

How the data were processed

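RNA was measured in retinas of 9 mice, 3 per genotype, and genotype and replicate number were read from the labels. Per the labels and methods, the authors made strand-specific poly(A) libraries, ran Trimmomatic, then HISAT2 against mm10 and then StringTie, with versions and annotation not given in the sources used here. The deposited TPM have the same sum in every library, the deposited FPKM are fragments per length and depth before that scaling, and the deposited coverage averages the reads on each base of a gene. No read counts were used here, so precision came from the spread between libraries, and the count-based test of the methods was not repeated. Genes of the mitochondrial genome were not analysed here.

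TPM of rows with the same name were summed. Genes with a mean of at least 1 TPM over all 9 libraries were tested with limma 3.58.1 (trend and robust prior, R 4.3.3) on log2(TPM + 1), a scale that understates the change of low genes, with genotype as the only term and 6 residual degrees of freedom. Tests are two-sided, with Benjamini-Hochberg adjustment over all tested genes and a limit of 0.05. The script was tested on simulated data. Alternatives were a pseudocount of 0.1, no filter, a minimum of 5 TPM, the replicate number as a block and log2 Xist as a covariate. Others were only the genotypes compared, FPKM, median-ratio scaling, TPM rescaled without 1315 genes called structural RNA here, no robust prior, and each library left out. Most of these 1315 were picked by name, such as microRNA and small nucleolar RNA genes. *Lars2*, which encodes a protein, was left out with them.

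The members and lists were chosen with earlier results of these data known. Named members are the 5 highest and 5 lowest in level, the 5 with the smallest unadjusted p in each comparison, the Mrps18 paralogs and *Mrps30*, 7 with known roles, and the 3 with the largest and the 3 with the smallest spread. In the other lists the genes named are among the 2 with the smallest p in a comparison, apart from *Esrra* and *Lars2*. Those were named after their values were seen. Promoters are from RefSeq, 1 per gene. Plots were made in Python 3.11.15 with matplotlib 3.10.9.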

Additional observations from a re-analysis of the deposited data

How the results depend on the processing

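No member passed an adjusted p of 0.05 in limma under any alternative, and the smallest adjusted p of a member ran from 0.109 to 0.881 in Cre/+ against +/+, from 0.330 to 0.993 in Cre/Cre against +/+ and from 0.306 to 0.967 in Cre/Cre against Cre/+. Counts at an unadjusted p under 0.05 were less stable, and so were those of all tested genes, given in parentheses. In Cre/+ against +/+ the 9 members (1628 genes) became 15 (2562) with only the genotypes compared and 3 to 12 (783 to 2486) when libraries were left out singly. In Cre/Cre against +/+ the 9 (1059) became 5 (789) with Xist as a covariate, 5 (853) with only the genotypes compared, 4 (1273) with median-ratio scaling, 4 (1313) without structural RNA, and 4 to 9 (756 to 1440) when libraries were left out. In Cre/Cre against Cre/+ the 4 (1000) became 7 (917) with Xist, 1 (839) with only the genotypes compared, 1 (737) with FPKM, 8 (1284) with median-ratio scaling, 10 (1303) without structural RNA, and 2 to 8 (648 to 1898) when libraries were left out. Without structural RNA the median log2 fold change of the members was -0.0035 in Cre/Cre against +/+ and 0.054 in Cre/Cre against Cre/+. Leaving out libraries moved the medians between -0.075 and -0.045, between -0.10 and -0.023, and between -0.050 and 0.037 in the 3 comparisons. The cause of these shifts was not tested.

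Of 33 named log2 fold changes under the alternatives, 624 of 627 values kept their direction and side of the threshold. Most of the 33 were picked for a small unadjusted p in these same libraries and had an adjusted p well above the threshold in limma. Keeping direction and side was thus likely beforehand, and the count is no separate support. *Mpv17l2* in Cre/Cre passed with FPKM (-0.58, adjusted p = 0.0231 in limma), a setting in which 7 of 13068 genes passed. *Sars2* in Cre/Cre against +/+ turned to -0.0024 with FPKM and ran from -0.031 to 0.12 when libraries were left out, the lowest without Cre/Cre replicate 2. Libraries with the same replicate number had correlations of their deviations between -0.12 and 0.13, and those with different numbers between -0.19 and 0.26. No pairing by number was seen in these values, and a shared litter or batch was not tested. With the replicate block 7, 6 and 5 members were at an unadjusted p under 0.05. With 3 libraries per genotype, small differences could not be told from the spread.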
